A study of Mus musculus with 18 samples.

Results

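The genes described are 10 mouse genes that make or remove reactive oxygen and nitrogen species: Nox4, Nos2, Sod1, Sod2, Sod3, Cat, Gpx1, Gpx3, Nqo1 and Hmox1. They were taken by name, as enzymes of this chemistry, with earlier results of these data known. All 10 were found among the 17001 gene symbols of the undifferentiated cells and among the 15482 symbols of the differentiated cells. All 10 passed the filter on low counts in both. The study sequenced poly(A) RNA of primary preadipocytes, the precursors of fat cells, isolated from the eWAT (epididymal white adipose tissue) of mice, in 18 libraries. There were 6 groups of 3 libraries, and every group is labelled wild type. From animals fed a control diet (CD), cells received the cytokine TGF-b1 plus SB431542, a small molecule that blocks the kinase of the type I TGF-b receptor (ALK5) and related receptors, or TGF-b1 alone. Untreated cells of animals fed a high-fat diet (HFD) formed the HFD mock group, and untreated cells from the control diet formed the CD mock group. No group received SB431542 without TGF-b1. Below, the words with SB431542 stand for TGF-b1 and SB431542 together. Cells sorted with an antibody to CD49e, the integrin alpha 5 encoded by Itga5, formed an Itga5-High and an Itga5-Low group, and both were harvested after adipogenic differentiation in culture; their labels give no diet. The sources used here give neither doses and durations of treatment nor the age and strain of the mice.

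Nox4 is an NADPH oxidase that releases hydrogen peroxide, and in fibroblasts it is a well-known target of TGF-b. Nos2 is the inducible nitric oxide synthase, best known from activated macrophages. Superoxide is turned into hydrogen peroxide by Sod1 in the cytosol, Sod2 in mitochondria and Sod3 outside the cell, and peroxide is removed by Cat (catalase) in peroxisomes, by Gpx1 within cells and by Gpx3 in the extracellular fluid. Nqo1, a quinone reductase, and Hmox1, which breaks down heme, are textbook targets of the transcription factor Nrf2.

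Levels are given in CPM, the usual unit of counts relative to sequencing depth, with library totals scaled by TMM, a normalization on the bulk of genes, and differences as log2 fold changes ± SE. A gene was called where edgeR's quasi-likelihood test put its adjusted p below 0.05, whatever its fold change. Library totals ran from 11154450 to 16130949 counts in the undifferentiated cells and from 12043449 to 17288614 in the differentiated cells. These 2 sets were scaled and fitted separately, so their levels are set side by side below without a test. The libraries of a group were close to what sampling alone gives: chi-square per degree of freedom was 1.15 to 1.25 over 18 replicate pairs. Whether replicates came from separate animals or cultures is not in the labels, so p-values speak only of the spread among these libraries, and that spread may be technical. The comparisons among undifferentiated cells share libraries, and their values are given side by side.

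The labelled cell type was checked against markers. The 8 preadipocyte and stromal markers, among them Pdgfra, Dcn and Col1a1, summed to 5817.7 to 5846.1 CPM with TGF-b1 and SB431542, 16203.8 to 16225.9 with TGF-b1, 15221.7 to 15272.0 in HFD mock and 11726.9 to 11815.0 in CD mock. Col1a1 made up most of these sums, except with SB431542 (2066.5, 14768.9, 12954.7 and 8930.2 CPM in that order of groups), and most of the list moved otherwise: 6 of 8 were lower and 2 higher with TGF-b1 than in CD mock (median -2.13 log2), and 6 were higher and 2 lower with SB431542 than with TGF-b1 alone (median 2.39 log2). Dcn, a matrix proteoglycan, stood at 1677.8, 164.6, 424.6 and 977.6 CPM, and Pdgfra, a growth factor receptor of stromal cells, at 463.9, 150.3, 393.7 and 485.8 CPM. Markers of other cells were present as well. The 12 macrophage markers summed to 1058.8 to 1080.5 CPM with TGF-b1 and SB431542, 588.6 to 604.4 with TGF-b1, 2446.6 to 2472.4 in HFD mock and 534.3 to 546.5 in CD mock, and none of the 12 was at 0. Lyz2 was the largest part of these sums, at 561.4, 384.2, 1162.9 and 306.9 CPM in that order of groups. The 7 endothelial markers summed to 744.5 to 763.2, 166.8 to 170.7, 111.5 to 120.7 and 344.7 to 359.2 CPM in the same order of groups. The 7 mesothelial markers summed to 1995.2 to 2004.1, 655.0 to 669.5, 586.4 to 598.5 and 2251.2 to 2281.5 CPM. After differentiation the macrophage markers summed to 43.1 to 44.6 CPM in Itga5-High and 22.46 to 23.03 CPM in Itga5-Low cells, with Aif1, Fcgr1 and Ptprc absent from that table, while the adipocyte markers summed to 6956.5 to 6975.4 CPM in Itga5-High and 7584.9 to 7622.7 CPM in Itga5-Low cells, with Lep absent. Csf1r was the largest part of these macrophage sums, at 29.5 CPM in Itga5-High and 9.54 CPM in Itga5-Low cells. In the same order Lyz2 stood at 6.06 and 6.02 CPM, Cd14 at 3.42 and 3.74 CPM and Cd68 at 2.96 and 1.96 CPM. In bulk RNA, fewer cells of a type and less RNA per cell cannot be told apart.

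Nox4 lies on mouse chromosome 7 (mm10, 87246649 to 87398709, plus strand) and is represented by 3 RefSeq transcripts. The 250 bases upstream of its start (RefSeq, GRCm38.p6, chr7:87246399-87246648, plus strand) are shown because Nox4 changed most with TGF-b1 among the enzymes that make or remove oxygen species, beside the same stretch of Gpx3 (chr11:54902604-54902853, plus strand), which changed most in the other direction among the antioxidant enzymes. Both strands were searched for the Smad motif CAGACA, and capitals mark a match. The search here and over all promoters covered 300 bases, the 250 before the start and 50 after it, which are not shown.
Nox4 upstream: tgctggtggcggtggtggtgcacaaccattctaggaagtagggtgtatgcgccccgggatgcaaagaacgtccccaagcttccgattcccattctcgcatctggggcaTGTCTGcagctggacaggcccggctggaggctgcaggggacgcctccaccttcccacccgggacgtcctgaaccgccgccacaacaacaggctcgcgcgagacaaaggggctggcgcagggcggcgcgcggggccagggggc
Gpx3 upstream: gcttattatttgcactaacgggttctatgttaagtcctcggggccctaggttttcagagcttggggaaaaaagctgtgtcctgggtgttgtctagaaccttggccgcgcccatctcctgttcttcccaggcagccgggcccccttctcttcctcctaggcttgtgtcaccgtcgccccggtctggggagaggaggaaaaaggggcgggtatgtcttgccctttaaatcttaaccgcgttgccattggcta
The Nox4 stretch held 1 match, on the minus strand 142 bases before the start, and the Gpx3 stretch held none. Of 32851 RefSeq promoters, 6913 (21%) held the motif, so a match is common and is a description of the letters only. Of the 10 genes, 7 had a promoter in the table, and Nox4 was the 1 with this match. The antioxidant response element, the motif bound by Nrf2 (searched as TGACNNNGC), was matched in Sod1, 56 bases before its start on the minus strand, and in 12.4% of all promoters. It was not matched in the 300 bases of Nqo1, and sequence further upstream was not searched. A pair of NF-kB motifs, in 1.63% and 0.432% of promoters, had no match among the 7. No promoter of Nos2, Sod3 or Hmox1 was available, so these genes were not searched for any motif.

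Nox4 was high with TGF-b1 and low when SB431542 was added. It stood at 13.1, 13.7 and 11.2 CPM in the 3 libraries with TGF-b1 and SB431542, at 94.2, 89.7 and 87.9 CPM with TGF-b1, at 20.6, 17.5 and 16.99 CPM in HFD mock and at 16.0, 15.7 and 15.8 CPM in CD mock. No neighbouring groups in this order of levels overlapped. Against CD mock, TGF-b1 raised Nox4 by 2.51 ± 0.061 log2, a 5.72-fold change (edgeR adjusted p = 1.6e-43). Adding SB431542 changed it by -2.83 ± 0.062 log2 against TGF-b1 alone, and it was then lower than in CD mock by a small margin (-0.32 ± 0.092 log2, edgeR adjusted p = 0.00214). The HFD libraries were 1.16-fold above CD mock (0.22 ± 0.084 log2, edgeR adjusted p = 0.0243), and HFD library 1 was the highest of them. This call rests on few libraries: without HFD library 1 the change was 0.122 log2 with an adjusted p of 0.279, it was also lost without CD library 2 or 3 (adjusted p = 0.066 and 0.0547), and with total-count scaling the adjusted p was 0.17.

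After differentiation Nox4 differed between the sorted groups. It stood at 14.1, 14.7 and 14.4 CPM in Itga5-High cells and at 46.6, 47.2 and 46.9 CPM in Itga5-Low cells, 3.26-fold lower in Itga5-High (-1.71 ± 0.063 log2, edgeR adjusted p = 4.64e-30). All Itga5-High libraries lay below all Itga5-Low libraries. Summed over a group, the transcript NM_015760 took 51.9% to 72.6% of Nox4 counts, the highest share being that of HFD mock, where single libraries ran from 54.9% to 85.1%. The other transcripts, NM_001285833 and NM_001285835, span the same positions. Between them the counts were divided by estimation and varied widely within groups, so no difference in transcript use was read from them.

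Nos2 had the opposite order of levels to Nox4 among undifferentiated cells. It lies on chromosome 11 (78920787 to 78960227, plus strand). It stood at 4.69, 4.12 and 5.76 CPM with TGF-b1 and SB431542, at 0.0853, 0.0887 and 0.202 CPM with TGF-b1, at 0.569, 0.409 and 0.705 CPM in HFD mock and at 1.32, 1.20 and 0.857 CPM in CD mock. The groups did not overlap, but the counts behind them were small, with 196 counts over the 3 SB431542 libraries, 5 with TGF-b1, 23 in HFD mock and 42 in CD mock. Nos2 passed the low-count filter through the SB431542 and CD mock libraries.

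By the summed counts, Nos2 was 8.55-fold lower with TGF-b1 than in CD mock, with an exact 95% interval of 3.39 to 27.7 that covers counting error only (-3.01 ± 0.55 log2 in edgeR, adjusted p = 1.39e-06). With SB431542 added it was 36.6-fold higher than with TGF-b1 alone, with an interval of 15.4 to 114 (edgeR adjusted p = 2.3e-19), and 4.29-fold higher than in CD mock, with an interval of 3.06 to 6.14 (2.09 ± 0.24 log2, edgeR adjusted p = 1.2e-11). Both differences exceeded the spread of the libraries. In HFD mock Nos2 was 1.99-fold lower than in CD mock, with an interval of 1.17 to 3.46 (-0.98 ± 0.38 log2, edgeR adjusted p = 0.0237). This call was lost with DESeq2 (adjusted p = 0.0506) and without CD library 1 or 2 or HFD library 1 or 2 (adjusted p = 0.0828, 0.0732, 0.053 and 0.0902).

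Markers of several cell types moved in these comparisons. With TGF-b1 against CD mock, where Nos2 fell, 7 of 7 mature adipocyte markers, 6 of 7 endothelial and 6 of 7 mesothelial markers were lower, and of the 12 macrophage markers 3 were higher and 4 lower. With SB431542 against TGF-b1 alone, where Nos2 was higher, 7 of 7 adipocyte, 6 of 7 endothelial, 5 of 7 mesothelial and 10 of 12 macrophage markers were higher. With SB431542 against CD mock, where Nos2 was also higher, 7 of 7 adipocyte, 5 of 7 endothelial and 12 of 12 macrophage markers were higher, and 5 of 7 mesothelial markers lower. In HFD mock against CD mock, where Nos2 was lower, 6 of 7 adipocyte, 7 of 7 endothelial and 7 of 7 mesothelial markers were lower, and 12 of 12 macrophage markers higher. The part of these markers in the Nos2 levels was not tested.

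In differentiated cells Nos2 stood at 16.99, 18.2 and 18.9 CPM in Itga5-High cells and at 2.72, 2.57 and 2.91 CPM in Itga5-Low cells. By counts, 724 against 137, it was 6.56-fold higher in Itga5-High cells, with an interval of 5.46 to 7.93 (2.71 ± 0.12 log2, edgeR adjusted p = 5.38e-27). The groups were far apart and each was tight. Macrophage markers, at most 44.6 CPM in sum there, had Csf1r as their largest part. They were called higher in 2 of the 4 that were tested, and their part in this result was not tested. The transcript NM_010927, which starts furthest upstream, took 43.9% of Nos2 counts in Itga5-High and 67.8% in Itga5-Low cells, with single libraries from 30.5% to 49.7% and from 52.2% to 95.7%. Within every undifferentiated group the shares of the 3 transcripts were the same in each library (77.2%, 21.7% and 1.06%), so these estimated shares were not read as transcript use.

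**Figure D1:**
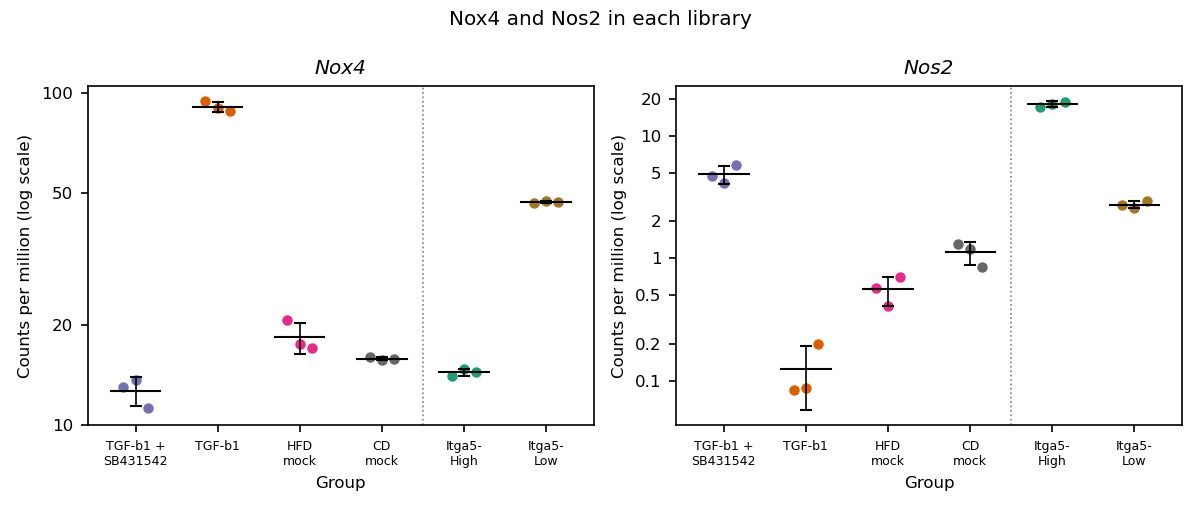
Nox4 (left) and Nos2 (right) in CPM on log axes, with 1 point per library, a bar at the mean and the SD of 3 libraries, for the 4 undifferentiated groups and, right of the dotted line, the sorted differentiated groups, which were scaled separately. Nox4 was highest with TGF-b1, at 87.9 to 94.2 CPM, where Nos2 was lowest, at 0.0853 to 0.202 CPM.

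The superoxide dismutases differed from one another in their responses. Sod1 (chromosome 16, 90220762 to 90226334), the cytosolic copper and zinc enzyme, stood at 121.7, 123.1 and 125.0 CPM with TGF-b1 and SB431542, 107.5, 112.4 and 109.4 CPM with TGF-b1, 102.3, 90.4 and 98.7 CPM in HFD mock and 111.3, 117.5 and 108.5 CPM in CD mock. The TGF-b1 and CD mock libraries overlapped and Sod1 was not called between them (-0.04 ± 0.035 log2, edgeR adjusted p = 0.32), though it was lower with total-count scaling (-0.188 log2, edgeR adjusted p = 3.76e-06). It was higher by 0.17 ± 0.034 log2 with SB431542 than with TGF-b1 alone and lower by a small step in HFD mock than in CD mock (-0.21 ± 0.035 log2).

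Sod2 (chromosome 17, 13007839 to 13018120), the mitochondrial manganese enzyme, stood at 99.9, 98.6 and 98.98 CPM with TGF-b1 and SB431542, at 53.1, 49.0 and 51.1 CPM with TGF-b1, at 55.0, 53.5 and 57.3 CPM in HFD mock and at 69.3, 71.7 and 72.7 CPM in CD mock. It fell with TGF-b1 against CD mock (-0.48 ± 0.043 log2, edgeR adjusted p = 2.53e-15) and fell in HFD mock (-0.36 ± 0.042 log2). With SB431542 it was 1.94-fold higher than with TGF-b1 alone and 1.39-fold higher than in CD mock. None of these groups overlapped.

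Sod3 (chromosome 5, 52363804 to 52369739), the secreted enzyme that binds matrix, stood at 95.04, 96.4 and 93.6 CPM with TGF-b1 and SB431542, at 62.3, 61.9 and 59.7 CPM with TGF-b1, at 127.5, 125.7 and 131.7 CPM in HFD mock and at 118.2, 115.5 and 118.9 CPM in CD mock. It was 1.92-fold lower with TGF-b1 than in CD mock (-0.94 ± 0.036 log2, edgeR adjusted p = 1.14e-32), and with SB431542 it was higher than with TGF-b1 alone (0.64 ± 0.037 log2) but still lower than in CD mock (-0.31 ± 0.032 log2). In HFD mock it was 1.09-fold higher, a call that was lost with total-count scaling (0.0453 log2, edgeR adjusted p = 0.2).

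In the sorted, differentiated cells Sod1 was slightly higher in Itga5-High, at 201.1, 197.0 and 204.4 CPM against 177.8, 177.7 and 174.8 CPM in Itga5-Low (0.18 ± 0.023 log2, edgeR adjusted p = 1.08e-09). Sod3 was lower, at 361.1, 363.2 and 346.1 CPM in Itga5-High against 500.9, 493.4 and 490.1 CPM in Itga5-Low (-0.47 ± 0.017 log2, edgeR adjusted p = 1.16e-30). Sod2 was not called, at 90.5, 95.01 and 84.8 CPM against 88.7, 98.8 and 92.5 CPM in Itga5-Low (-0.05 ± 0.038 log2, edgeR adjusted p = 0.251). The Sod2 groups overlapped, and it became a call with total-count scaling (-0.0926 log2, adjusted p = 0.0337).

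Among the enzymes that remove peroxide, Cat and Gpx3 were lowest with TGF-b1, and Gpx1 was highest there. Cat (chromosome 2, 103453904 to 103485154, minus strand) stood at 152.0, 154.0 and 148.6 CPM with TGF-b1 and SB431542, 82.4, 78.3 and 84.8 CPM with TGF-b1, 110.0, 107.7 and 113.6 CPM in HFD mock and 96.7, 91.4 and 91.6 CPM in CD mock. It fell with TGF-b1 by 0.18 ± 0.037 log2, rose 1.85-fold with SB431542 against TGF-b1 alone and 1.63-fold against CD mock, and rose 1.19-fold in HFD mock. The 4 groups did not overlap.

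Gpx1 and Gpx3 are both selenoproteins, in which a TGA codon is read as selenocysteine in the active site. The stretch around that codon is shown because these related enzymes changed in opposite directions with TGF-b1; capitals mark the TGA, with 30 coding bases on each side, from GENCODE M21 transcripts.
Gpx1 codon 47: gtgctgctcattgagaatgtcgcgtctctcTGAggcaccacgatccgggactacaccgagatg
Gpx3 codon 73: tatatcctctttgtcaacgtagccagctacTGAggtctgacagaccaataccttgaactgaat
The TGA of Gpx1 lies on chromosome 9 at 108339451 to 108339453 and that of Gpx3 on chromosome 11 at 54907256 to 54907258. Of the 63 positions, 27 were identical.

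Gpx1 stood at 139.7, 136.3 and 137.9 CPM with TGF-b1 and SB431542, at 220.5, 219.1 and 222.1 CPM with TGF-b1, at 209.3, 217.9 and 216.9 CPM in HFD mock and at 152.7, 156.2 and 160.7 CPM in CD mock. It rose 1.41-fold with TGF-b1 (0.49 ± 0.025 log2, edgeR adjusted p = 1.83e-26) and 1.37-fold in HFD mock (0.46 ± 0.025 log2, edgeR adjusted p = 1.22e-24) against CD mock. With SB431542 it was lower than with TGF-b1 alone (-0.68 ± 0.025 log2) and a little lower than in CD mock (-0.18 ± 0.027 log2). All 12 macrophage markers were also called higher in HFD mock than in CD mock, and their part in the Gpx1 rise there was not tested.

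Gpx3 stood at 476.2, 479.0 and 478.7 CPM with TGF-b1 and SB431542, at 256.5, 254.3 and 256.6 CPM with TGF-b1, at 573.5, 558.0 and 572.4 CPM in HFD mock and at 537.2, 529.8 and 535.0 CPM in CD mock. It was 2.09-fold lower with TGF-b1 than in CD mock (-1.06 ± 0.017 log2, edgeR adjusted p = 6.66e-53) and 1.87-fold higher with SB431542 than with TGF-b1 alone. With SB431542 it was 1.12-fold lower than in CD mock. The step up in HFD mock was 1.06-fold and was not called with total-count scaling (0.00661 log2, edgeR adjusted p = 0.729).

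Mature adipocyte markers moved beside these genes in undifferentiated cells. All 7 in the table were called lower with TGF-b1 than in CD mock, with a median of -2.82 log2, and all 7 higher with SB431542 than in CD mock, with a median of 2.04 log2. In sum they stood at 3719.2 to 3761.1 CPM with TGF-b1 and SB431542, 200.2 to 209.2 with TGF-b1, 886.7 to 896.8 in HFD mock and 1295.7 to 1321.1 in CD mock, with Lep and Pck1 absent. Lpl made up most of these sums, at 2803.0, 158.1, 785.1 and 1111.9 CPM in that order of groups. Adipoq stood at 70.35, 0.1183, 0.2901 and 3.994 CPM. Sod2, Sod3, Cat and Gpx3 fell with TGF-b1 as these markers did, whereas with SB431542 against CD mock Sod2 and Cat were higher and Sod3 and Gpx3 lower. In HFD mock against CD mock 6 of the 7 markers were called lower and 0 higher (median -0.922 log2), where Sod2 was lower, Cat higher, and Sod3 and Gpx3 higher by steps that were lost with total-count scaling. The part of the markers in these results was not tested.

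Between the sorted groups Cat was lower in Itga5-High, at 151.9, 150.9 and 154.4 CPM against 194.8, 191.3 and 190.3 CPM in Itga5-Low (-0.33 ± 0.024 log2, edgeR adjusted p = 1.03e-17). Gpx1 was 1.08-fold higher, at 132.9, 130.8 and 127.8 CPM in Itga5-High against 120.2, 121.2 and 122.0 CPM in Itga5-Low. Gpx3, the most abundant of the 10, was at 1567.3, 1543.4 and 1568.9 CPM in Itga5-High against 1517.8, 1523.2 and 1510.6 CPM in Itga5-Low. That step of 1.03-fold passed the test with TMM (0.04 ± 0.0097 log2) and changed sign with total-count scaling (-0.00047 log2, adjusted p = 0.975), so no direction is given for it. Of 8 mature adipocyte markers tested, 5 were called lower and 2 higher in Itga5-High (median -0.171 log2). Their part in the differences of the 10 genes between the sorted groups was not tested.

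The Nrf2 targets Nqo1 and Hmox1 rose with TGF-b1 and differed in HFD mock. Nqo1 (chromosome 8, 107388225 to 107403206, minus strand) stood at 17.3, 16.0 and 18.2 CPM with TGF-b1 and SB431542, 26.4, 24.7 and 25.4 CPM with TGF-b1, 12.1, 13.1 and 12.8 CPM in HFD mock and 19.1, 17.2 and 18.7 CPM in CD mock. It rose 1.40-fold with TGF-b1 (0.48 ± 0.073 log2, edgeR adjusted p = 4.83e-08) and fell 1.44-fold in HFD mock (-0.53 ± 0.085 log2, edgeR adjusted p = 2.24e-07). The SB431542 and CD mock libraries overlapped and were not called apart (-0.09 ± 0.079 log2, adjusted p = 0.336), and the sign turned with total-count scaling (0.0201 log2, adjusted p = 0.84).

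Hmox1 (chromosome 8, 75093618 to 75100594) stood at 409.7, 400.8 and 401.2 CPM with TGF-b1 and SB431542, 543.6, 554.4 and 542.9 CPM with TGF-b1, 464.1, 458.9 and 455.7 CPM in HFD mock and 389.7, 391.9 and 399.8 CPM in CD mock. It rose 1.39-fold with TGF-b1 (0.47 ± 0.016 log2, edgeR adjusted p = 4.49e-35) and 1.17-fold in HFD mock, and it was 1.35-fold lower with SB431542 than with TGF-b1 alone. Between SB431542 and CD mock it was just short of a call (0.04 ± 0.017 log2, adjusted p = 0.0537). It was called with total-count scaling (0.146 log2, adjusted p = 2.72e-11) and without CD library 3 (adjusted p = 0.0381). The part of the macrophage markers, of which all 12 were called higher in HFD mock, in the Hmox1 rise there was not tested.

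In differentiated cells both were higher in Itga5-High. Nqo1 stood at 13.5, 11.4 and 14.9 CPM in Itga5-High against 11.1, 11.0 and 9.90 CPM in Itga5-Low (0.32 ± 0.096 log2, edgeR adjusted p = 0.00417; 0.0507 without Itga5-High library 3). Hmox1 stood at 331.4, 322.6 and 335.6 CPM in Itga5-High against 239.2, 230.6 and 235.8 CPM in Itga5-Low (0.49 ± 0.020 log2, edgeR adjusted p = 3.02e-28). The Hmox1 groups were well apart, while the closest Nqo1 libraries of the groups nearly met.

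**Figure D2:**
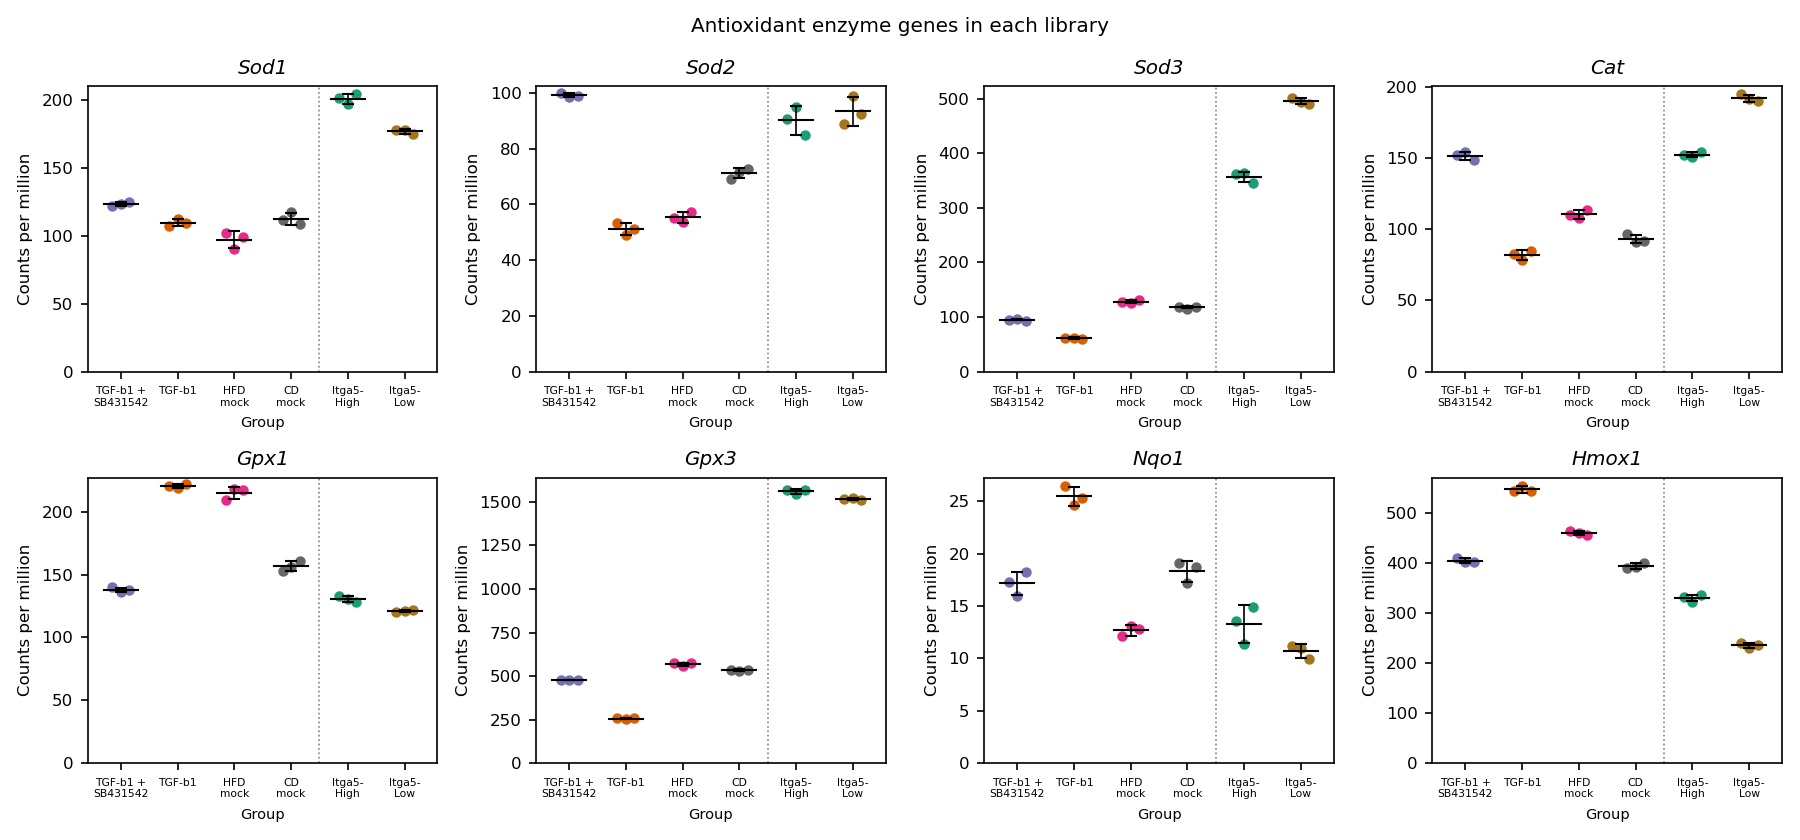
The 8 antioxidant genes in CPM, with 1 point per library and the mean with SD of 3 libraries, each panel on its own linear axis; the sorted differentiated groups, right of the dotted line, were scaled separately. Gpx3 and Sod3 were lowest with TGF-b1, whereas Gpx1, Nqo1 and Hmox1 were highest there among undifferentiated cells.

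Set side by side, 9 of the 10 genes were called with TGF-b1 against CD mock, 4 higher and 5 lower, where 67.8% of the 14078 genes tested were called. The median size of change was 0.488 log2 for the 10 and 0.312 log2 for all genes. With SB431542 against TGF-b1 alone all 10 were called, 6 higher and 4 lower, where 79.7% of genes were, with medians of 0.781 and 0.489 log2. With SB431542 against CD mock 8 were called, 4 higher and 4 lower, where 61.2% of genes were, with medians of 0.244 and 0.239 log2. In HFD mock against CD mock all 10 were called, 6 higher and 4 lower, where 54% of genes were, with medians of 0.236 and 0.198 log2; with total-count scaling 7 were called, 3 higher and 4 lower. Between Itga5-High and Itga5-Low cells 9 were called, 6 higher and 3 lower, where 53.6% of 13468 genes were, with medians of 0.326 and 0.188 log2; with total-count scaling 5 were higher and 4 lower. The counts are read against these large shares of all genes. The 10 genes were chosen with earlier results of these data known, so the medians are a description only. In each of TGF-b1 against CD mock, SB431542 against TGF-b1, and Itga5-High against Itga5-Low, Nox4 and Nos2 changed by at least 1.71 log2 in size and each antioxidant gene by at most 1.06 log2.

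**Figure D3:**
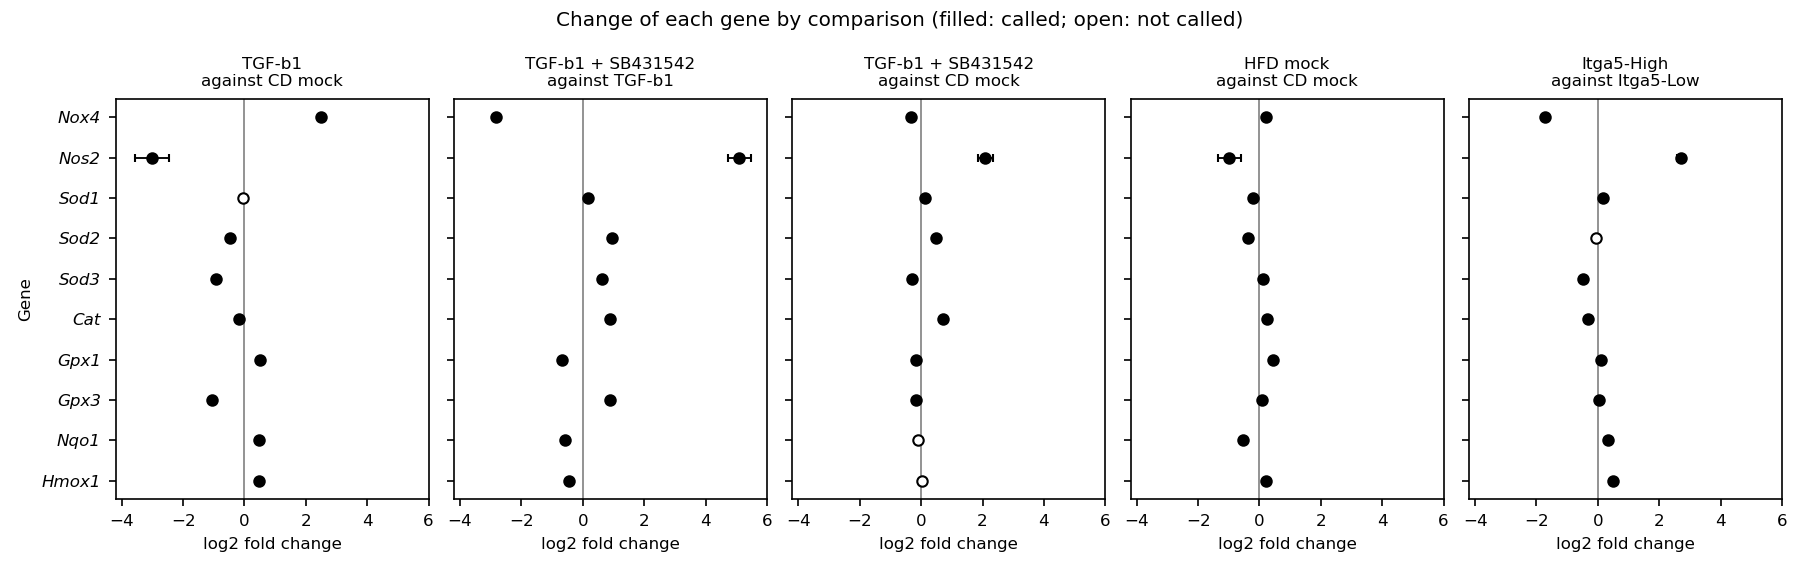
Log2 fold changes with SE of the 10 genes in the 5 comparisons, each of 3 against 3 libraries; a value above 0 means higher in the group named first. Nox4 reached 2.51 and Nos2 -3.01 with TGF-b1 against CD mock, and the antioxidant genes lay between -1.06 and 0.49.

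Per kilobase of transcript, which allows levels of different genes to be compared, Gpx3 was the highest of the 10 in 5 of the 6 groups. Its level was 314 ± 0.998 CPM per kilobase with TGF-b1 and SB431542, 168 ± 0.905 with TGF-b1, 373 ± 5.63 in HFD mock and 350 ± 2.56 in CD mock (SD, n = 3). With TGF-b1 Hmox1 was the highest, at 347 ± 4.11 CPM per kilobase, and Nox4, at 24.1 ± 0.863, stood seventh, above Nqo1 and Sod2. In CD mock Nox4 was ninth, at 4.21 ± 0.038 CPM per kilobase. Nos2 was the lowest in every group except Itga5-High, where it reached 4.54 ± 0.247 CPM per kilobase and Nox4 was lower, at 3.83 ± 0.0904.

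Calls in the gene lists that follow are read against the shares of all genes called. These shares were 67.8% with TGF-b1 against CD mock, 79.7% with SB431542 against TGF-b1 alone and 61.2% with SB431542 against CD mock. In HFD mock the share was 54%, and between the sorted groups 53.6%. NADPH oxidases other than Nox4, with their partner subunits, were examined as a list of 17 genes. Of these, 14 were found in the undifferentiated cells and 11 were tested. In HFD mock 7 rose and 0 fell in edgeR, with a median of 0.695 log2 against -0.00769 for all genes; 4 were not called. With total-count scaling 7 were higher and 2 lower. Ncf4 and Ncf1, cytosolic subunits of this oxidase, changed most, Ncf1 at 47.7 ± 1.20 CPM in HFD mock against 7.94 ± 1.38 CPM in CD mock (6.05-fold) and Ncf4 at 12.6 ± 1.66 against 1.78 ± 0.327 CPM (7.07-fold). Cybb, the catalytic subunit also called Nox2, stood at 86.6 ± 1.13 CPM in HFD mock against 22.3 ± 0.829 CPM in CD mock. Nox4 rose 1.16-fold in the same libraries. The 12 macrophage markers, all called higher in HFD mock, had a median of 2.68 log2, and their part in the rise of these subunits was not tested.

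With TGF-b1 against CD mock, 7 of the 11 were higher and 3 lower, or 5 higher and 4 lower with total-count scaling, and the called genes of largest change were lower. Cybb stood at 11.5 ± 1.70 CPM with TGF-b1 against 22.3 ± 0.829 CPM in CD mock (-0.95 ± 0.085 log2, edgeR adjusted p = 2.64e-15), and Hvcn1, a proton channel that sustains the oxidase, at 24.9 ± 0.521 against 40.9 ± 2.37 CPM. Macrophage markers were called higher in 3 of 12 and lower in 4 there. With SB431542 against TGF-b1 alone 6 were higher and 4 lower, or 8 and 2 with total-count scaling. Against CD mock 7 were higher and 2 lower, or 9 and 0 with that scaling. Rac2, the small GTPase of the phagocyte oxidase, stood at 22.7 ± 0.836 CPM with TGF-b1 and SB431542 against 3.54 ± 0.968 CPM with TGF-b1 and 8.25 ± 0.718 CPM in CD mock. Macrophage markers were called higher in 10 of 12 against TGF-b1 alone and in 12 of 12 against CD mock, and their part was not tested.

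In differentiated cells 7 of the list were tested, of which 5 were higher and 2 lower in Itga5-High. Cyba, the membrane partner that both Nox4 and Cybb need, stood at 73.0 ± 4.76 CPM in Itga5-High against 54.4 ± 0.641 CPM in Itga5-Low cells (0.42 ± 0.043 log2, edgeR adjusted p = 2.32e-12). It was thus higher in the group in which Nox4 was lower. Cybb was near 0 there, with 8 counts in Itga5-High and 6 in Itga5-Low libraries.

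**Figure D4:**
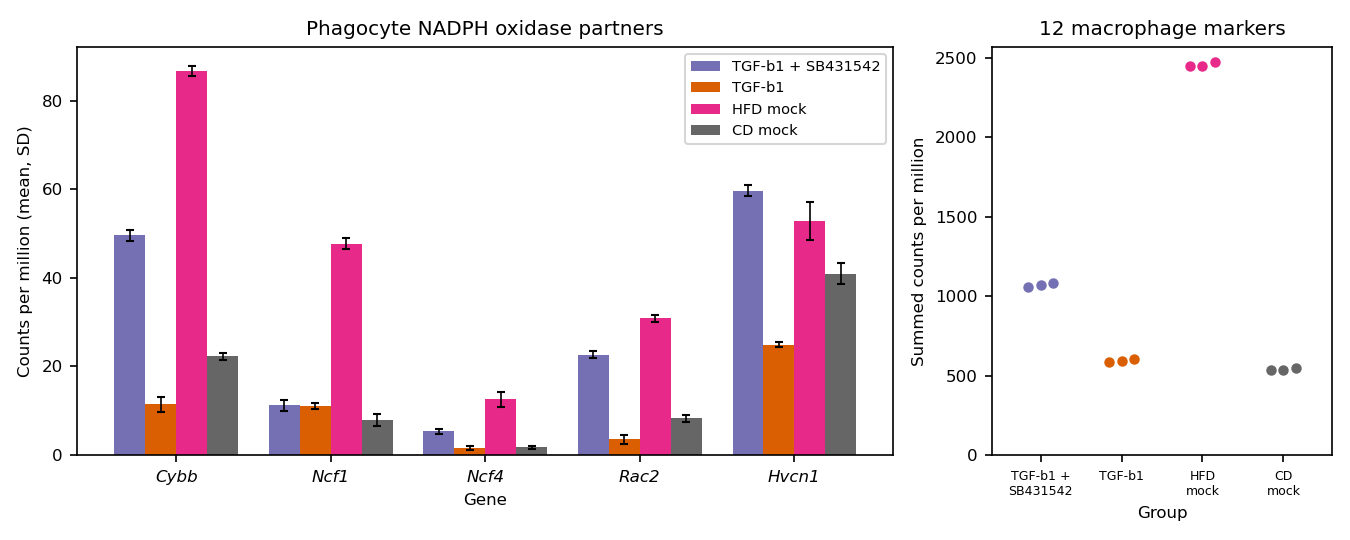
Left, mean CPM with SD (n = 3) of 5 genes of the phagocyte NADPH oxidase, Cybb and its partners, in the 4 undifferentiated groups. Right, the summed CPM of 12 macrophage markers, with 1 point per library. Cybb and Ncf1 were highest in HFD mock, at 86.6 and 47.7 CPM, as was the marker sum, at 2446.6 to 2472.4 CPM.

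Genes of nitric oxide synthesis and arginine handling, a list of 15 of which 14 were tested, were called higher in 7 and lower in 4 with TGF-b1 against CD mock, with a median of 0.253 log2 against -0.0165 for all genes. Ddah1, which degrades the natural inhibitors of nitric oxide synthases, stood at 28.8 ± 1.33 CPM with TGF-b1 and SB431542, 266.0 ± 1.75 with TGF-b1, 202.4 ± 4.84 in HFD mock and 76.6 ± 1.41 in CD mock. It rose 3.48-fold with TGF-b1 and 2.64-fold in HFD mock, the groups in which Nos2 was lowest. Ass1, the argininosuccinate synthase that helps to recycle arginine, rose 2.69-fold with TGF-b1, at 50.8 ± 5.52 CPM against 19.2 ± 7.91 CPM in CD mock, with a wide spread in each group.

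Nos3, the endothelial synthase, stood at 21.7 ± 0.362 CPM with TGF-b1 and SB431542, 1.95 ± 0.209 with TGF-b1, 2.74 ± 0.168 in HFD mock and 9.11 ± 0.651 in CD mock. It was 11.1-fold higher with SB431542 than with TGF-b1 alone and 2.38-fold higher than in CD mock. The endothelial markers Pecam1, Cdh5 and Cldn5 took the same order of groups. Pecam1 stood at 210.9, 12.7, 20.5 and 76.8 CPM, Cdh5 at 288.6, 21.9, 35.6 and 125.8 CPM, and Cldn5 at 98.47, 2.585, 4.751 and 18.08 CPM. The markers Kdr, Tek, Emcn and Vwf did not take that order. Kdr stood at 56.2, 102.8, 21.96 and 65.97 CPM, and Vwf at 10.24, 5.5, 13.43 and 24.3 CPM. Tek stood at 46.01, 16.03, 12.75 and 22.13 CPM, and Emcn at 44.37, 7.262, 6.975 and 21.24 CPM. The part of endothelial markers in the Nos3 levels was not tested. Gch1, the first enzyme of the synthesis of the cofactor tetrahydrobiopterin, fell in HFD mock, at 8.84 ± 0.542 against 11.9 ± 0.627 CPM in CD mock. With SB431542 the list was split, with 6 higher and 6 lower against TGF-b1 alone and 6 higher and 4 lower against CD mock (8 and 3 with total-count scaling), and in HFD mock 5 were higher and 4 lower. Between the sorted groups 3 were higher and 2 lower of 12, led by Slc7a2, an arginine transporter, at 24.7 ± 2.70 CPM in Itga5-High against 65.0 ± 0.600 CPM in Itga5-Low; with total-count scaling 1 was higher and 3 lower.

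The other oxidases, 13 tested, were called higher in 2 and lower in 5 with TGF-b1 against CD mock (0 and 10 with total-count scaling), and higher in 7 and lower in 2 with SB431542 against TGF-b1 alone (11 and 2). With SB431542 against CD mock 6 were higher and 2 lower (8 and 1), in HFD mock 5 were higher and 6 lower, and in Itga5-High 2 were higher and 6 lower. Xdh, the xanthine oxidoreductase that can yield superoxide, stood at 481.6 ± 8.37 CPM with TGF-b1 and SB431542, 70.8 ± 2.02 with TGF-b1, 180.5 ± 5.21 in HFD mock and 270.2 ± 2.31 in CD mock. Its fall of 3.81-fold with TGF-b1 had the opposite sign to the rise of Nox4. Maoa, a monoamine oxidase that releases peroxide, stood at 143.1 ± 3.11, 41.5 ± 1.30, 47.7 ± 0.816 and 83.6 ± 0.460 CPM in the same order of groups.

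Glutathione enzymes, 25 tested, mostly fell with TGF-b1 (8 higher and 14 lower) and in HFD mock (3 higher and 14 lower), with medians of -0.295 and -0.196 log2. With total-count scaling the split with TGF-b1 was 5 higher and 17 lower. In both of these comparisons markers of other cell types were lower too, in 7 of 7 (TGF-b1) and 6 of 7 (HFD mock) for mature adipocytes, 6 of 7 and 7 of 7 for endothelium, and 6 of 7 and 7 of 7 for mesothelium, and their part in the fall of the glutathione enzymes was not tested. With SB431542, 15 were higher and 9 lower than with TGF-b1 alone (17 and 6 with total-count scaling), and 11 higher and 8 lower than in CD mock (15 and 6). Ggt5, a gamma-glutamyl transferase, stood at 66.5 ± 1.89 CPM with TGF-b1 and SB431542, 0.898 ± 0.279 with TGF-b1, 22.9 ± 0.736 in HFD mock and 25.8 ± 1.20 in CD mock. Mgst1, a membrane-bound glutathione transferase, stood at 286.0 ± 6.72, 27.6 ± 1.12, 77.8 ± 1.97 and 165.8 ± 2.12 CPM in that order of groups. In HFD mock Gsta3 and Gsta4, cytosolic transferases of alpha class, were 3.72-fold and 3.64-fold lower than in CD mock; such paralogs are alike in sequence, so their counts may be shared. Between the sorted groups the list was split, with 10 higher and 8 lower of 26, or 8 higher and 11 lower with total-count scaling. Gpx7, a peroxidase of the endoplasmic reticulum, was higher in Itga5-High, at 97.4 ± 1.60 against 64.8 ± 1.09 CPM.

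Nrf2 and its targets other than the named members, 29 tested, did not move as a block. Gclc, Gclm and Gsr of this list are also on the list of glutathione enzymes. Txnrd1, Srxn1, Prdx1 and Txn1 are also on that of peroxiredoxins and thioredoxins, so the counts of these lists are not separate. With TGF-b1 against CD mock 15 were higher and 12 lower, or 11 higher and 13 lower with total-count scaling. Slc7a11, the cystine transporter, rose 1.77-fold with TGF-b1 and Ephx1, an epoxide hydrolase, fell 1.90-fold. In HFD mock 12 were higher and 11 lower, or 7 higher and 15 lower with total-count scaling, with Gsr, the glutathione reductase, 1.85-fold lower and Akr1b8, an aldo-keto reductase, 1.5-fold higher. With SB431542 12 were higher and 15 lower than with TGF-b1 alone, or 14 higher and 12 lower with total-count scaling, and 10 higher and 12 lower than in CD mock, or 14 higher and 7 lower with total-count scaling. Between the sorted groups 16 were higher and 6 lower in Itga5-High, with a median of 0.146 log2 against -0.00333 for all genes. Esd, an esterase, stood at 272.9 ± 8.12 CPM in Itga5-High against 168.7 ± 3.39 CPM in Itga5-Low, and Me1, a malic enzyme that yields NADPH, at 238.1 ± 6.32 against 355.2 ± 2.39 CPM.

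Peroxiredoxins and thioredoxins, 16 tested, were called higher in 6 and lower in 6 with TGF-b1 against CD mock, or 5 and 8 with total-count scaling. In Itga5-High 10 were higher and 5 lower than in Itga5-Low. Txn1, the cytosolic thioredoxin, stood at 275.3 ± 10.2 CPM in Itga5-High against 192.6 ± 3.75 CPM in Itga5-Low, and Sesn1, a sestrin, at 13.7 ± 0.109 against 22.1 ± 0.689 CPM. Txnip, an inhibitor of thioredoxin, was 1.74-fold higher with SB431542 than in CD mock and 1.31-fold higher in HFD mock than in CD mock.

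The genes whose levels over the 4 undifferentiated groups were most like those of Nox4 were Plk2, Pmaip1 and Hoxb9. Their Euclidean distances were 0.422, 0.454 and 0.508, out of 10484 genes compared. Distances were taken between centred group means of log2 CPM, with a prior count of 2 added before the logarithm. Plk2, a polo-like kinase, stood at 87.4 ± 2.52 CPM with TGF-b1 and SB431542, 501.3 ± 0.693 with TGF-b1, 145.6 ± 1.13 in HFD mock and 126.3 ± 1.03 in CD mock. For Nos2 the nearest were Fabp4, Car9 and Cfb, at 0.315, 0.332 and 0.332. Fabp4, a fatty acid binding protein and adipocyte marker, stood at 642.8 ± 5.14, 45.1 ± 1.37, 94.8 ± 2.71 and 156.4 ± 2.56 CPM in the same order of groups. Likeness was measured over 4 group means only and describes these levels alone. The prior count narrows the range of Nos2, which had 5 counts over the TGF-b1 libraries. In plain CPM, Nos2 spanned 38.7-fold from its lowest to its highest group, a wider range than that of Fabp4. The genes nearest to Nos2 may therefore depend on this setting, and others were not tested.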

How the data were processed

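The deposited tables hold estimated counts per RefSeq transcript, with fractions where reads were divided between transcripts. Per the submitters' processing notes, fastp, STAR, featureCounts and the build mm10 were used; no versions or settings are given in the sources used here. For each gene symbol the transcripts' values were added up and rounded (Python 3.11.15, pandas 2.3.3). The 12 undifferentiated libraries were fitted together and the 6 differentiated libraries separately in edgeR 4.0.16 (R 4.3.3): filterByExpr left 14078 and 13468 genes, libraries were scaled with TMM, dispersions were kept at 1e-04 or above, and the quasi-likelihood test compared the groups. The estimated dispersion was below that limit for 3780 and 1746 genes. Benjamini-Hochberg adjustment ran over all genes tested, and genes below 0.05 were called. The scripts were tested on simulated data.

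Depth, from 11154450 to 17288614 counts per library, gives few counts for Nos2, whose exact 95% interval of a ratio of summed counts covers counting error only. The members, lists and tests were chosen with earlier results of these data known. Besides the 10 members, named genes are the 2 called genes of largest change per list and comparison that reached 10 CPM in their higher group, and the 3 genes nearest to Nox4 and to Nos2; not all are printed. Alternatives were total-count and RLE scaling, no low-count filter, DESeq2 1.42.0, no lower limit on dispersion, the replicate number as a block, and each library left out in turn.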

Additional observations from a re-analysis of the deposited data

How the results depend on the processing

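For the 10 genes in 5 comparisons, 600 alternative values were computed, of which 582 kept direction and side of the threshold, 12 lost the call, 4 gained one and 2 changed sign. The sign changed with total-count scaling for Nqo1 with SB431542 against CD mock (0.0201 log2) and for Gpx3 in Itga5-High against Itga5-Low (-0.00047 log2). That scaling moved the median of all genes by -0.148 log2 with TGF-b1 against CD mock, 0.258 with SB431542 against TGF-b1, 0.11 with SB431542 against CD mock, -0.0834 in HFD mock and -0.0407 between the sorted groups. Totals of calls over both directions did not move by over 1.5 times, for all genes or for the 10 genes. Some counts by direction moved more with total-count scaling. With TGF-b1 against CD mock, 49.4% of all called genes were higher with TMM and 31.4% with total-count scaling. In HFD mock, Nox4, Sod3 and Gpx3 were called higher with TMM and were not called with total-count scaling. Some counts by direction within the pathway lists also moved by over 1.5 times with that scaling. Other oxidases lower with TGF-b1 were 10 in place of 5, and those higher with SB431542 against TGF-b1 11 in place of 7. Nrf2 targets higher in HFD mock were 7 in place of 12, and metallothionein, selenoprotein and related genes higher there 5 in place of 10, among others. Over all alternatives, leave-one-out included, the genes called ranged from 8692 to 9792 with TGF-b1 against CD mock, 10631 to 11913 with SB431542 against TGF-b1, 7597 to 8842 with SB431542 against CD mock, 6564 to 7946 in HFD mock and 5925 to 7282 between the sorted groups. Same-numbered libraries did not deviate together (21 pairs, r from -0.0549 to 0.023, with 0 over 0.1), so the numbers are not taken as pairs. With the replicate block 9480, 11207, 8558, 7544 and 7129 genes were called in that order of comparisons, and all calls of the 10 genes stayed. Depth limits Nos2, with 5 counts in the TGF-b1 libraries.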

Other observations

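Genes of iron, selenium and metal handling, which border on the chemistry of these enzymes, were listed as well. Their counts are read against the shares of all genes called. These shares were 67.8% with TGF-b1 against CD mock, 79.7% with SB431542 against TGF-b1 alone and 61.2% with SB431542 against CD mock. In HFD mock the share was 54%, and between the sorted groups 53.6%. Of 20 heme and iron genes tested, 4 were higher and 11 lower with TGF-b1 against CD mock, and 12 higher and 5 lower with SB431542 against TGF-b1 alone, or 16 and 2 with total-count scaling. Cp, the ferroxidase ceruloplasmin, stood at 122.1 ± 3.8 CPM with TGF-b1 and SB431542, 3.55 ± 0.527 with TGF-b1, 13.95 ± 0.797 in HFD mock and 34.0 ± 2.45 in CD mock (SD, n = 3). Heph, a related membrane ferroxidase, stood at 106.9 ± 0.531, 13.1 ± 0.370, 17.2 ± 0.731 and 43.0 ± 1.79 CPM in the same order of groups. Adipocyte, endothelial and mesothelial markers fell with TGF-b1 as well, in 7 of 7, 6 of 7 and 6 of 7, and their part was not tested. In HFD mock 8 of the list were higher and 8 lower than in CD mock, and with SB431542 10 were higher and 2 lower than in CD mock. Between the sorted groups 4 were higher and 8 lower, with Fth1, the ferritin heavy chain, at 2501.7 ± 14.9 CPM in Itga5-High against 3180.6 ± 28.3 CPM in Itga5-Low.

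Of 19 metallothionein, selenoprotein and related genes tested, 10 were higher and 5 lower with TGF-b1 against CD mock, or 7 higher and 7 lower with total-count scaling. With SB431542 against TGF-b1 alone 5 were higher and 11 lower, or 9 and 8 with that scaling. Selenop, the plasma selenium carrier, stood at 1682.6 ± 12.8 CPM with TGF-b1 and SB431542, 54.7 ± 1.51 with TGF-b1, 234.5 ± 2.59 in HFD mock and 546.0 ± 3.30 in CD mock. Mt2, a metallothionein, stood at 117.9 ± 2.83 CPM with TGF-b1 and 142.7 ± 2.56 in HFD mock against 334.4 ± 8.0 CPM in CD mock. With SB431542 6 of the list were higher and 10 lower than in CD mock (9 and 8 with total-count scaling), and in HFD mock 10 were higher and 4 lower, or 5 higher and 6 lower with total-count scaling. Between the sorted groups 7 were higher and 3 lower (7 and 5 with total-count scaling), with Selenbp1, a selenium-binding protein, at 99.8 ± 3.71 CPM in Itga5-High against 54.4 ± 1.54 CPM in Itga5-Low.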
